A study of Aspergillus niger with 6 samples.

Results

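A set of 179 Aspergillus niger gene IDs was abundant in seed mycelium and stood at a ratio of 0.5 or less of that level in malate fermentation, without going silent. The members were selected on their measured levels in the 6 libraries of the series. The selection asked for a mean seed level of at least 300 CPM (an ID's counts scaled to a library total of 1000000), a mean fermentation level above 5 CPM and a fermentation/seed ratio of at most 0.5. The count table lists 10505 IDs, of which 10489 begin with ANI_1_ and could qualify, and 605 of these reached the seed floor. Besides the 179 members, 424 of the 605 kept more than 50% of their seed level and 2 dropped to 5 CPM or below. Seed level, fermentation level and their ratio chose the members, so they are given below as a description and no test is read from them.

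The mycelium came from 1 strain, written RG0095 in the titles and GR0095 elsewhere in the labels, with ATCC 1015 named as its line. Every library carries the same genotype, in which oahA (oxaloacetate acetylhydrolase, which makes oxalate) is deleted and pyc (pyruvate carboxylase), mdhC (a malate dehydrogenase) and Pgpd-C4T318, a construct named with a gpd promoter, are listed. Seed libraries were from mycelium grown for 20 h in seed medium and fermentation libraries from such mycelium after 72 h in fermentation medium, with 3 biological replicates each per the labels. Medium and culture time change together between the states and cannot be told apart, and the unmodified parent was not analysed here.

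Library totals ran from 16828913 to 20267348 counts. Fermentation replicate 1 stood apart from the other libraries, with a TMM scaling factor (edgeR's correction for a few genes taking up much of a library) of 0.879 against 0.989 to 1.05 elsewhere. Levels are given by library totals, and the main values within fermentation also with TMM scaling or without this library. CPM measures a share of the mRNA pool, so a lower CPM cannot be told apart from an unchanged amount in a pool that grew in other transcripts.

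Aspergillus niger is a filamentous fungus that excretes organic acids, and malate production is run as a growth phase in rich seed medium followed by an acid-forming phase. In fast-growing fungal hyphae much of the mRNA pool usually encodes ribosomal proteins, translation factors and enzymes of central metabolism. This is background only. The count file pairs no ID with a name, and 0 of its IDs were found among 14404 genes listed by RefSeq for assembly ASM285v2. No role or sequence is therefore given for any member. The ID with the highest seed level and the ID with the lowest ratio are printed, and every other member is called by its rank in mean seed level among the 179.

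Together the members held 18.2%, 18.0% and 18.9% of the counts in seed replicates 1, 2 and 3. In fermentation replicates 1, 2 and 3 they held 5.75%, 6.67% and 6.16%. The states did not overlap, and the mean share went from 18.4 ± 0.463% to 6.19 ± 0.460% (SD, n = 3 each). All 605 abundant seed IDs went from 58.5 ± 1.14% to 50.8 ± 1.95% (SD, n = 3 each). Every member stood at a ratio of 0.5 or less by selection, so a loss spread over the members was set in advance. The share of the most abundant members is given as a description. The 10 with the highest seed level held 18.6 ± 1.31% of what the members had in seed and 17.4 ± 1.503% of it in fermentation (SD, n = 3 each), a difference within the spread of the replicates.

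**Figure D1:**
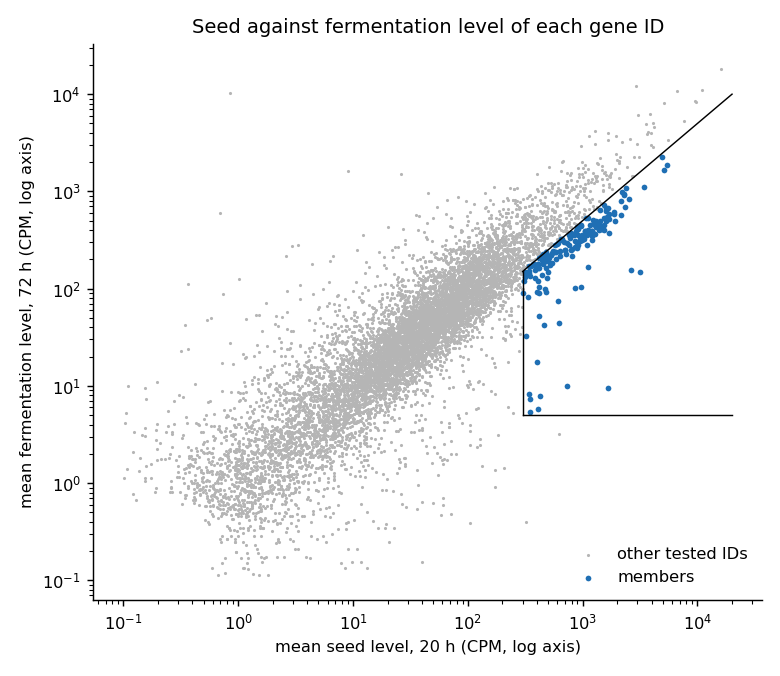
Mean fermentation level against mean seed level of each tested gene ID in CPM, both axes logarithmic, with the 179 members in blue and IDs under 0.1 CPM in either state not drawn. The lines mark the selection (300 CPM in seed, 5 CPM in fermentation, a ratio of 0.5), and most members lie in a dense band close under the ratio line while a few lie far below it.

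Mean seed levels of the members ran from 300.2 to 5450 CPM with a median of 866, and mean fermentation levels from 5.40 to 2272 CPM with a median of 295. The median member kept 35.2% of its seed level, with quartiles of 30.3% and 42.9%. Without fermentation replicate 1 the median was 36.7%, and with TMM scaling it was 37.7%. In edgeR's fit the median log2 fold change (fermentation over seed) was -1.41 with a median standard error of 0.11. Over all 8963 tested IDs the median was 0.01, and over the 424 other abundant IDs it was 0.05.

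All 179 members passed the low-count filter, and in each of them every seed library lay above every fermentation library. Over all tested IDs that held for 39.7%. All 179 were also called lower by edgeR's quasi-likelihood test at a Benjamini-Hochberg adjusted p under 0.05, a call made for 33.0% of all tested IDs. The selection used this contrast, so nothing is read from these counts. At the ratio limit the last member inside kept 49.9% and the first ID outside 50.1%. The seed floor fell between an ID at 300.2 CPM and one at 299.7 CPM. At the fermentation floor the lowest member stood at 5.40 CPM and the highest excluded ID at 3.22 CPM.

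Reduction to 50% or less was most frequent among the IDs with the highest seed levels. Of IDs between 10 and 30 CPM in seed 17.2% were at or below 50% of it in fermentation, of those between 30 and 100 CPM 13.8% were, and of those between 100 and 300 CPM 14.7% were. The share was 25% (109 of 436) between 300 and 1000 CPM and 42.6% (72 of 169) from 1000 CPM upward. Picking IDs for a high level in one state favours IDs that are lower in the other, so the same was counted in reverse. By fermentation level, 12.9% of IDs between 10 and 30 CPM and 12.2% between 30 and 100 CPM were at or below 50% of it in seed. Between 100 and 300 CPM 20.0% were, between 300 and 1000 CPM 28.0%, and from 1000 CPM upward 23.2% of 138. The reverse share was thus the larger one between 100 and 1000 CPM. Below 100 CPM and from 1000 CPM upward it was the smaller one. TMM scaling brought the values of the highest level closer, to 42.0% of IDs from 1000 CPM in seed and 29.9% of those from 1000 CPM in fermentation. From 300 CPM upward the order depended on the scaling, with 29.9% against 27.0% by library totals and 26.6% against 30.04% by TMM.

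The members fell into a dense body and a sparse tail. Of the 179, 154 (86.0%) kept more than 25% of their seed level, 13 kept over 10% to 25%, and 12 kept 10% or less. Within the body, 72 members lay between 30% and 40%, with a median of 1085 CPM in seed and 382 CPM in fermentation. The 63 that kept over 40% to 50% were less abundant, at medians of 576 and 241 CPM.

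The middle 50% of the members with higher seed levels lay closer together in the share they kept. The 60 highest in seed (1119 to 5450 CPM) kept a median of 33.2%, with quartiles of 29.5% and 36.6%. The next 60 kept 35.7%, with quartiles of 32.0% and 44.4%. The 59 lowest (300.2 to 543 CPM) kept 40.1%, with quartiles of 25.5% and 44.0%. The interquartile range of their log2 fold changes widened from 0.30 over 0.48 to 0.80, while the median standard error was 0.11, 0.11 and 0.13. The SD, which also counts the members far below, was 0.92, 0.82 and 1.35, so by this measure the highest members were not the narrowest. The ratio limit cuts the upper side of each of these ranges. Across the members, which are not replicates and share the same libraries, log2 seed level and log2 ratio correlated at r = 0.06 (Spearman's rho -0.18, n = 179). The ratio has the seed level as its denominator, and the selection used both. Nothing is therefore read from the ranges or the correlation.

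**Figure D2:**
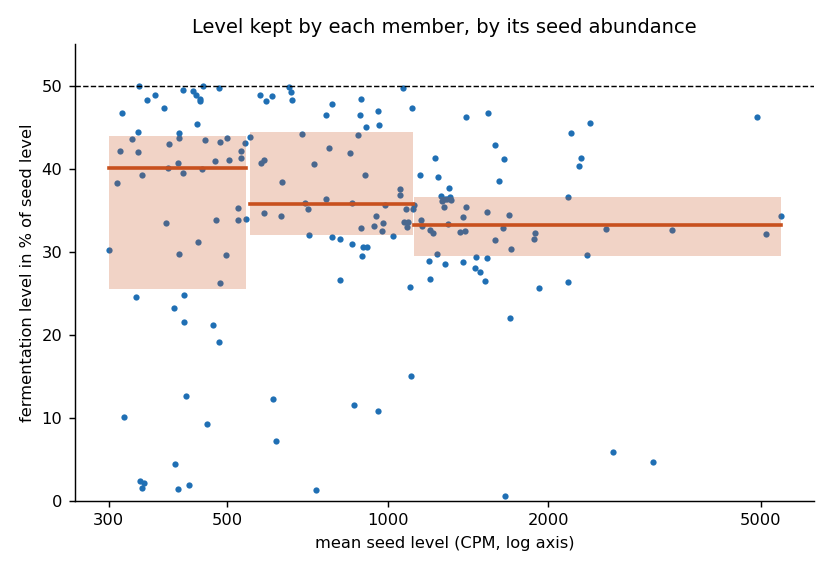
Fermentation level in percent of seed level for each of the 179 members (points) against mean seed level in CPM on a logarithmic axis. The orange lines and bands are the median and quartiles of the 60 highest, next 60 and 59 lowest members (33.2%, 35.7% and 40.1% at the median), the dashed line is the 50% limit, and the quartile band, which leaves out the lowest points, is narrowest for the highest members.

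The member with the highest seed level was ANI_1_1450024, which ranked 8 among all IDs in seed. It stood at 5196, 5492 and 5661 CPM in seed replicates 1, 2 and 3 and at 1809, 1926 and 1875 CPM in the fermentation replicates. Both states were tight, and its 34.3% kept was close to the median of the members. The log2 fold change was -1.44 ± 0.11 (SE, n = 3 per state).

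Several of the next members kept nearly the same share. The second in seed level stood at 4664, 4691 and 5997 CPM in seed and 1407, 1846 and 1673 CPM in fermentation, and it kept 32.1%. The fourth went from 3482, 3430 and 3302 CPM to 937, 1242 and 1147 CPM, which is 32.6%. The seventh went from 2529, 2472 and 2675 CPM to 729.5, 951 and 831 CPM, which is 32.7%. In these 3 members fermentation replicate 1 was the lowest and replicate 2 the highest of its state, also with TMM scaling. The eighth kept more, 45.4%, and stood at 1064, 1115 and 1082 CPM in fermentation (1210, 1077 and 1095 CPM with TMM scaling) after 2322, 2370 and 2483 CPM in seed.

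Some of the other highly abundant members were far lower in fermentation. The fifth in seed level went from 2696, 3286 and 3438 CPM to 220, 106 and 115 CPM and kept 4.68%. The sixth went from 1740, 3169 and 3004 CPM to 185, 163 and 114 CPM and kept 5.84%. Both were highest in fermentation replicate 1, unlike most members. Their log2 fold changes were -4.28 ± 0.36 and -3.99 ± 0.31 (SE, n = 3 per state).

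The lowest ratio was that of ANI_1_50084, which ranked 21 among the members in seed level. It stood at 1883, 1400 and 1687 CPM in seed and at 8.20, 14.6 and 5.87 CPM in fermentation. It kept 0.576% of its seed level, and the log2 fold change was -7.35 ± 0.34 (SE, n = 3 per state). Its 499 fermentation counts summed over 3 libraries are far from zero, although the libraries differed 2.48-fold among themselves.

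The 12 members that kept 10% or less had seed means of 344 to 3140 CPM and fermentation means of 5.40 to 154 CPM. Their summed share went from 1.15 ± 0.0899% in seed to 0.0460 ± 0.0128% in fermentation (SD, n = 3 each). They varied more between replicates in fermentation than the other members, with a median coefficient of variation (CV, SD over mean) of 13.8% in seed and 31.7% in fermentation. For the 154 members that kept over 25% these medians were 5.31% and 11.3%. Those of the 13 in between were 12.5% and 14.2%. With TMM scaling the fermentation medians were 35.8%, 7.04% and 12.7% in the same order, and without fermentation replicate 1 they were 19.5%, 8.40% and 7.49%. A median CV over fewer libraries tends to be lower, so the values without replicate 1 compare only with each other. The smallest summed count of any member in fermentation was 280.

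**Figure D3:**
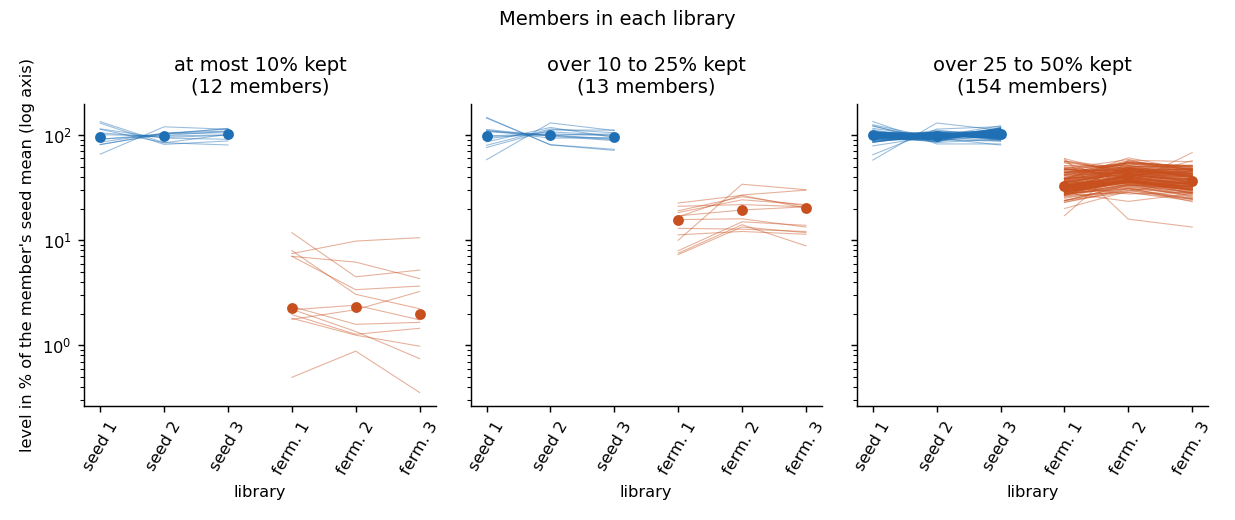
Level of each member in each of the 6 libraries, in percent of its own seed mean on a logarithmic axis, for the 12, 13 and 154 members that kept at most 10%, over 10% to 25% and over 25% to 50%. Thin lines join the values of 1 member within a state and dots are medians, and the seed and fermentation values of each member do not overlap.

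Most members stood above the median of all tested IDs in fermentation, but fewer reached the 300 CPM asked of them in seed. In fermentation 171 of the 179 lay above 28.6 CPM, that median, 161 reached 100 CPM and 88 reached 300 CPM. The 8 members not above the median were all under 20 CPM. The levels and ratio used in the selection bear on these counts, so nothing is read from them. Of the 100 most abundant IDs of seed 39 were members, and of the 100 most abundant IDs of fermentation 3 were, namely members 1, 2 and 3 in seed level. Across the 179, mean seed and mean fermentation level had a Spearman's rho of 0.85, given as a description. The selection used both levels and capped their ratio, which favours a high rho, so nothing is read from it.

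The spread between replicates was not part of the selection. Within seed the median CV of the members was 5.83%, against 6.56% for the 424 other abundant IDs and 9.79% for all tested IDs. Within fermentation it was 11.7%, against 11.7% and 15.2%, all by library totals. The members' fermentation value depends on the libraries and the scaling. On other scalings or fewer libraries it was not set against the other IDs. It was 8.52% without fermentation replicate 1, 8.06% without replicate 2 and 14.9% without replicate 3, and 7.65% over all 3 replicates with TMM scaling. A median CV over fewer libraries tends to be lower, so the leave-out values are not comparable with 11.7%. In seed, too, it was 5.24%, 4.58% and 3.96% without seed replicate 1, 2 and 3. The steadiest member in seed by library totals, member 26, stood at 1599, 1586 and 1586 CPM. Which member was steadiest in fermentation depended on the scaling. By library totals it was member 88, at 412, 407 and 415 CPM, which with TMM scaling stood at 469, 394 and 420 CPM (CV 8.93%). With TMM scaling it was member 176, at 152, 155 and 153 CPM.

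The members differed together among the fermentation cultures. In 137 of 179 members (76.5%) fermentation replicate 2 was the highest of the 3, against 50.6% of all tested IDs and 30.9% of the other abundant IDs. With TMM scaling it was the highest in 99 members (55.3%), against 32.3% of all tested IDs and 14.4% of the other abundant IDs. Fermentation replicate 1 was the highest in 26 members by library totals and 61 by TMM, and replicate 3 in 16 and 19.

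Fermentation replicates 2 and 3 were also compared without replicate 1. A member highest in replicate 2 is above replicate 3 by definition, so these counts contain those above and are not separate support. Fermentation replicate 2 was above replicate 3 in 151 members by library totals, against 61.6% of all tested IDs, and in 142 by TMM, against 49.2%. For the other abundant IDs the numbers were 211 and 125 of 424. The median log2 difference of replicate 3 from replicate 2 in the members was -0.16 by library totals and -0.10 by TMM, with quartiles of -0.24 and -0.09 by library totals. These differences are small beside the fall between the states. They compare single libraries and allow no test, and members are not independent of one another.

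The lead of fermentation replicate 2 was most regular among the members that kept over 30% to 40%. Of the 72 members that kept over 30% to 40%, 70 were highest in fermentation replicate 2 by library totals and 56 by TMM, and 71 and 69 were higher in replicate 2 than in replicate 3. Of the 63 that kept over 40% to 50%, 40 and 26 were highest in replicate 2, and 47 and 41 were above replicate 3. Of the 13 that kept over 10% to 25%, 10 and 7 were highest in replicate 2, and 11 were above replicate 3 on either scaling. Of the 12 that kept 10% or less, 8 and 9 were highest in replicate 1. Within seed, replicate 3 was the highest in 79 members (44.1%) by library totals and 97 (54.2%) by TMM, against 30.6% and 36.3% of all tested IDs.

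**Figure D4:**
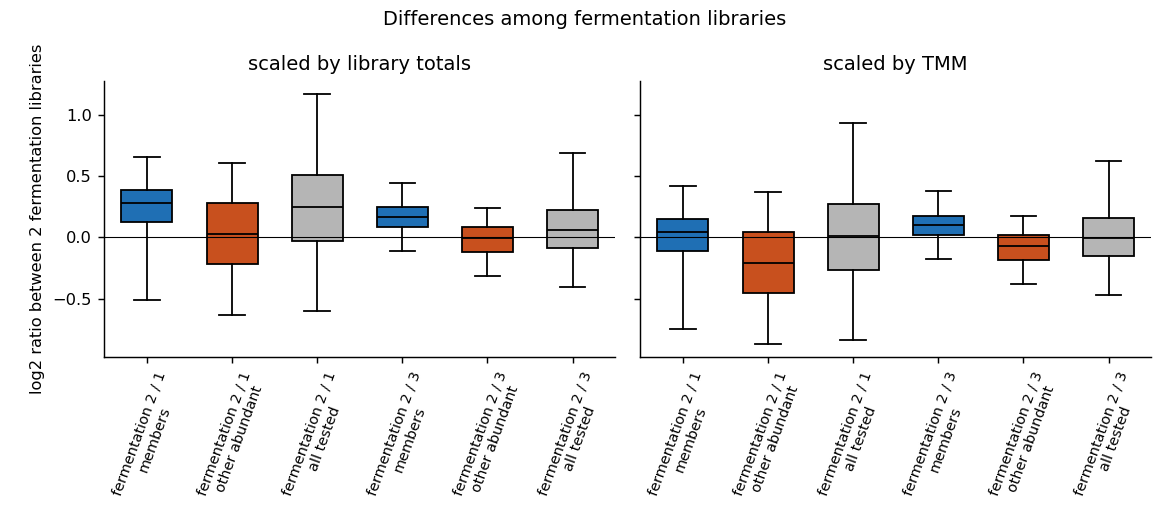
Log2 ratios of fermentation replicate 2 to replicates 1 and 3 for the 179 members (blue), the 424 other abundant seed IDs (orange) and all tested IDs (grey), scaled by library totals or by TMM. Boxes span the quartiles around the median and whiskers the percentiles 5 to 95, and in both panels the members' box of replicate 2 over replicate 3 lies above 0.

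In a few members the level kept rested on 1 library. The ninth in seed level stood at 2029, 2344 and 2701 CPM in seed and at 1401, 374 and 315 CPM in fermentation. It kept 29.5% over all libraries but 14.6% without fermentation replicate 1, and its log2 fold change had the largest standard error of all members, 0.56. The third stood at 4297, 4864 and 5573 CPM in seed and at 1770, 1692 and 3354 CPM in fermentation. It kept 46.3%, but 35.2% without fermentation replicate 3. It kept 51.4% without replicate 1 and 52.2% without replicate 2, either of which would put it outside the selection. Besides the ninth, 1 member moved by more than 1.5 times when a library was left out. It ranked 158, stood at 31.9, 12.2 and 8.89 CPM in fermentation, and kept 4.42% with and 2.64% without fermentation replicate 1.

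The 4 members with the largest CV in seed formed pairs that were near-parallel in seed, with replicate 1 apart from the others. Seed replicate 1 also stood apart in members 179, 126, 147 and 6, which had the next largest CVs (29.6% to 30.4%). It was the lowest in members 179 and 6 and the highest in 126 and 147. Members 150 and 154 stood at 242, 543 and 460 CPM and at 236, 532 and 454 CPM in seed. In fermentation they stood at 41.5, 142 and 126 CPM and at 69.7, 236 and 227 CPM. Both were lowest in replicate 1 of each state. In every library of a state they kept nearly the same ratio to each other, 0.972 to 0.986 in seed and 1.66 to 1.81 in fermentation, for member 154 over 150. Their ID numbers lie 3 places apart. In seed members 149 and 159 ran the other way, at 605, 338 and 305 CPM and at 587, 321 and 285 CPM. In fermentation they did not, at 76.3, 101 and 90.9 CPM and at 89.8, 106 and 80.5 CPM. The ratio of member 159 over 149 was 0.934 to 0.969 in seed but 0.886 to 1.18 in fermentation. Their IDs have different endings.

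The ID numbers were not used in the selection, and the file does not say what they stand for. Of the 10489 IDs, 10482 can be read as a number with a 3-digit ending, and the members had 17 of the 18 endings. With IDs sorted by number inside each ending, 16 of 179 members (8.94%) stood next to another member, as 8 separate pairs. Of all ordered IDs 3.30% stood next to a member. One of the pairs joined the fifth member in seed level (4.68% kept) with member 137 (9.27% kept). In 3 pairs the members kept similar shares, 33.6% and 34.3%, 48.8% and 49.5%, and 49.7% and 48.2%. In the other 4 they kept 34.8% and 41.3%, 32.6% and 41.0%, 29.7% and 41.1%, and 31.2% and 40.9%.

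Non-members next to a member lay near the other IDs. The 316 tested ones had a median log2 fold change of -0.08 with quartiles of -0.69 and 0.47. The 8461 tested non-members elsewhere had a median of 0.04 with quartiles of -0.59 and 0.72. Among the former 34.5% were called lower and among the latter 31.6%. Of the 12 members that kept 10% or less, 4 had IDs with the ending 104 and 3 with the ending 114. These endings hold 14 and 4 of all members, and 739 and 276 of the 10482 ordered IDs. The 4 with the ending 104 include the neighbouring pair of the fifth member in seed level and member 137.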

How the data were processed

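Counts per gene ID were deposited by the authors as whole numbers without normalization, 1 column per library, with 3 libraries per state. Per the submitters' processing notes, the tools included HTSeq, HISAT2, Trimmomatic, SAMtools, StringTie, Bowtie2, DESeq and Cufflinks. Versions, genome build, annotation and strand setting were not given in the sources used here. How reads of overlapping, antisense and near-identical genes were assigned is therefore not known, and the counts of such genes may be affected. Members were found on CPM from library totals. Fold changes, standard errors (absolute log2 fold change over the root of F) and calls came from edgeR 4.0.16 (R 4.3.3; TMM, filterByExpr with a minimum count of 10, quasi-likelihood test, group as the only term, Benjamini-Hochberg over 8963 IDs). The script was tested on simulated data. DESeq2 1.42.0, limma 3.58.1 (voom), other scalings and filters, a replicate block and leaving out each library were alternatives. Replicates differed beyond sampling noise (chi-square per degree of freedom 11.7 to 80.4) and each counted as 1. Members and lists were chosen with earlier results of these data known. The printed IDs are the member of highest mean seed CPM and that of lowest ratio. Other members were described after their values were seen. The gene lists by function could not be applied without names.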

Additional observations from a re-analysis of the deposited data

How the results depend on the processing

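Members were called lower in 177 to 179 cases under every other scaling, filter, tool and left-out library, and all tested IDs in 2264 to 3507. The median log2 fold change of the members was -1.56 under upper-quartile scaling, and DESeq2 called 177. No label ties equal replicate numbers together. Deviations of same-numbered libraries correlated at r = 0.05, 0.06 and 0.08, and with a replicate block 179 members and 2905 IDs were called lower. The selection gave 156 members with TMM scaling, 153 with RLE and 191 with upper-quartile scaling, the last holding all 179. A ratio of at most 0.4 left 116. With 1 library left out it gave 165 (without fermentation replicate 1) to 182, of which 160 to 175 were among the 179. Without the 10 most abundant members the others held 14.9% of seed and 5.11% of fermentation counts. Fermentation replicate 1 was the highest of its state in 61, 65 and 54 members with TMM, RLE and upper-quartile scaling (26 by library totals) and in 3481, 3590 and 3309 of all tested IDs (1886 by library totals). The members' median CV in fermentation was 7.65% with TMM and 7.65% with RLE scaling. Counting the next ID but one as a neighbour gave 35 members near another. The counts for fermentation replicate 2, the share of level kept without a library and TMM values by abundance, class and single member were added after the data were seen. Summed over a state, each member had at least 280 counts. A floor of 5 CPM in fermentation was part of the selection and bears on this sum. Whether depth limited the members was not tested.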
